A study of Homo sapiens with 10 samples.

Results

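The 10 genes described here are NPTX1 and 9 transcription factor genes of the early germ layers: OTX2, PAX6 and SOX1 for the neural ectoderm, TBXT, MIXL1 and EOMES for the primitive streak and mesoderm, and GATA6, SOX17 and FOXA2 for the endoderm. They are the 10 rows of a deposited count table of 60651 genes that carry these symbols. NPTX1 was chosen by its counts in the t-hESC libraries, which differed between the treatments, and the other 9 by their known roles. For NPTX1 the levels there are a description with no test, and counts of changed genes cover the other 9. The study measured RNA in HT29, an established colorectal cancer cell line, and in t-hESC, which the labels give as transformed pluripotent stem cells. It has 5 groups of 2 libraries, and its design text calls them biological replicates: t-hESC under the solvent DMSO, under BIX at 1 µM and under VXN at 10 µM, and HT29 under DMSO and under VXN at 10 µM. The treatment field reads 48 hours of DMSO in all 10 samples, so compounds and doses come from the sample titles. VXN stays a code name here, with nothing in the labels to expand it. BIX is a short name of an inhibitor of the enzymes G9a and GLP, which place the dimethyl mark on lysine 9 of histone H3 that the series title refers to.

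In the early embryo, pluripotent cells leave their undifferentiated state through the ectoderm, the mesoderm or the endoderm. Nodal, BMP and Wnt signals drive the primitive streak, from which mesoderm and endoderm arise, and cells shielded from them turn to the neural fate. NPTX1 encodes neuronal pentraxin 1, a secreted protein that gathers AMPA-type glutamate receptors at synapses. In human pluripotent cells it is known to favour the neural fate and to bind TDGF1, the co-receptor of Nodal.

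Counts in genes totalled between 13137026 and 24492838 a library, and levels are given as CPM, the counts scaled by library size. A gene with 0 counts may still be present at up to 3 counts, which is 0.124 to 0.220 CPM by library; this floor covers counting error only. The 8 markers of pluripotent stem cells summed to between 4584 and 5326 CPM in the t-hESC libraries and between 236 and 251 CPM in HT29. In HT29 nearly all of this was PODXL, with a mean of 246 CPM under DMSO and 228 under VXN. The 8 markers of intestinal epithelium summed to between 7.22 and 11.6 CPM in t-hESC and between 1087 and 1478 CPM in HT29. Both marker lists followed the labelled lines. A gene is called where edgeR's quasi-likelihood test gave a Benjamini-Hochberg adjusted p under 0.05 over all 22495 genes tested, and its p-values measure the spread between these libraries alone.

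The DNA just before the start is shown for 3 members whose levels changed: the promoters of OTX2 and PAX6, which fell under a compound in t-hESC, and of GATA6, which fell in HT29. Each run is the 250 bases before the outermost RefSeq start of the gene on GRCh38.p14, read 5′ to 3′ on the gene's strand. The promoter table holds 9 windows for PAX6, 2 for OTX2 and 1 for GATA6, and which start these cells use was not tested. Capitals mark CG dinucleotides, the sites where DNA methylation is placed.
OTX2, chr14:56810480-56810729, minus strand: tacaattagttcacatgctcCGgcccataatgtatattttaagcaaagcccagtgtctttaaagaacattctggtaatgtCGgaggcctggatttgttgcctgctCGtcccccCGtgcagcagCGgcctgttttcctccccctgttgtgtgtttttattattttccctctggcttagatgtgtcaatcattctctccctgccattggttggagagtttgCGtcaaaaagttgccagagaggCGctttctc
PAX6, chr11:31817962-31818211, minus strand: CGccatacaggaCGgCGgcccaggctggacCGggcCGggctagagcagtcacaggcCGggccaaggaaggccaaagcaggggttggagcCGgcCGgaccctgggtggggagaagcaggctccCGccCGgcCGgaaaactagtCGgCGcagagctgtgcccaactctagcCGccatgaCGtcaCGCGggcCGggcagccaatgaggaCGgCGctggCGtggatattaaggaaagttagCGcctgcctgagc
GATA6, chr18:22169339-22169588, plus strand: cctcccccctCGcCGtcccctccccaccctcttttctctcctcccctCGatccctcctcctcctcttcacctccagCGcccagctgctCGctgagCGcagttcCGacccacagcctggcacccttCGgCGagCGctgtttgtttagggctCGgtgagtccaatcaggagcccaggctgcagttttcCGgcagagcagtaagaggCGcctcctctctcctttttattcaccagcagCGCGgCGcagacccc
The OTX2 window holds 7 CG dinucleotides, the GATA6 window 16 and the PAX6 window 22, where the median of 35116 such windows is 11. Fewer CG than in the OTX2 window were found in 41.1% of windows, than in GATA6 in 59% and than in PAX6 in 72%. For known motifs 3 patterns were searched on both strands. The OTX-type homeodomain motif TAATCC is in 5.62% of all windows. The GATA-type motif, AGATAA with either A or T as its first letter, is in 14.6%. The T-box motif TCACACC is in 2.76%. None of them was found in the 3 windows. This says only that these letters are not in these windows. NPTX1, SOX17 and FOXA2 had no entry in the promoter table.

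NPTX1 (chromosome 17, 80466834 to 80476607, GRCh38.p14) was the member that differed most between the t-hESC groups. Its level was 15.6 and 15.1 CPM under DMSO, 28.9 and 30.5 CPM under BIX, and 1.38 and 1.41 CPM under VXN. These rest on 283 and 321 counts, 459 and 416 counts, and 23 and 25 counts. The groups did not overlap, and BIX lay above DMSO while VXN lay below it. The ratio of mean CPM was 1.94 for BIX over DMSO, 11.01 for DMSO over VXN and 21.3 for BIX over VXN. On the log2 scale the fitted differences were 0.95 ± 0.087 (SE) for BIX and -3.45 ± 0.16 for VXN, against the same DMSO libraries. The plot of member levels in t-hESC shows the 2 libraries of each group close together for this gene.

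**Figure D1:**
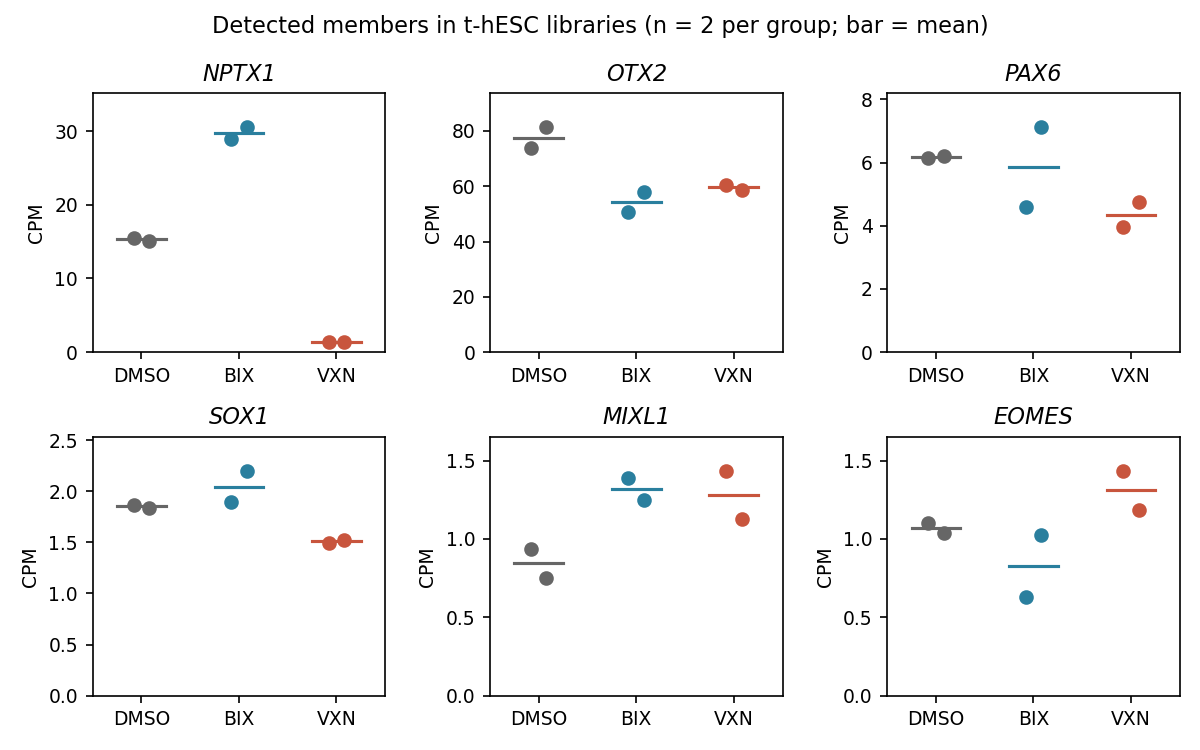
Levels in CPM (vertical axes, each from 0) of the 6 members detected in t-hESC, by treatment. Points are the 2 libraries of a group and bars their mean; NPTX1 separates all 3 groups, OTX2 lies lower under both compounds than under DMSO, and the BIX libraries of PAX6 lie on either side of the DMSO ones.

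OTX2 (chromosome 14, 56799905 to 56810479), which encodes a homeodomain factor of the primed pluripotent state and of the anterior neural plate, fell under both compounds. Its level was 73.8 and 81.3 CPM under DMSO, 50.8 and 57.8 CPM under BIX, and 60.4 and 58.8 CPM under VXN. Every treated library lay below both DMSO libraries. The log2 fold change was -0.52 ± 0.057 (SE) for BIX, a level 0.696 times that of DMSO (edgeR adjusted p = 4.02e-11). For VXN it was -0.38 ± 0.055, a level 0.767 times that of DMSO (edgeR adjusted p = 4.72e-08). Both calls held under all 17 alternatives, with adjusted p of at most 5.03e-06 for BIX and 0.000794 for VXN. In the authors' deposited tables OTX2 was called for BIX (adjusted p = 0.0138) and not for VXN (0.075).

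PAX6 (chromosome 11, 31789026 to 31817961) encodes a paired-box factor that marks the neural ectoderm and the eye field. It stood at 6.16 and 6.22 CPM under DMSO, 4.60 and 7.12 CPM under BIX, and 3.95 and 4.74 CPM under VXN. Both VXN libraries lay below both DMSO libraries, and the BIX libraries overlapped DMSO. The log2 fold change for VXN was -0.51 ± 0.17 (SE), a level 0.704 times that of DMSO (edgeR adjusted p = 0.0176). The call was lost with DESeq2 (adjusted p = 0.259), without DMSO replicate 1 (0.0517), without DMSO replicate 2 (0.0773) and without VXN replicate 1 (0.173), so for this gene it depends on single libraries. For BIX the log2 fold change was -0.10 ± 0.17, with a 95% interval of -0.43 to 0.24 (edgeR adjusted p = 0.76).

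SOX1 (chromosome 13, 112067149 to 112071706), which encodes an early factor of the committed neural plate, was low throughout. It had 1.87 and 1.84 CPM under DMSO, 1.89 and 2.20 CPM under BIX, and 1.49 and 1.52 CPM under VXN, from 25 to 39 counts a library. Neither difference passed the test: the 95% interval of the log2 fold change ran from -0.39 to 0.67 for BIX (edgeR adjusted p = 0.794) and from -0.84 to 0.25 for VXN (0.472). Changes within these intervals were not detectable at this depth. Of the 3 neural members, then, BIX lowered 1 and VXN lowered 2, where 12.2% and 14.6% of all genes were called lower. The VXN call of PAX6 was the one that depended on single libraries. The level of NPTX1, which was chosen by these values, was higher under BIX and lower under VXN.

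The primitive streak members were near the limit of detection. TBXT (chromosome 6, 166157656 to 166168655), the brachyury gene, had at most 3 counts in any library, so no fold is given. MIXL1 (chromosome 1, 226223664 to 226227060), a homeobox gene of the streak, had 17 and 16 counts under DMSO, 22 and 17 under BIX, and 24 and 20 under VXN. In CPM these were 0.934 and 0.754, 1.39 and 1.248, and 1.44 and 1.13, so every treated library lay above DMSO. The log2 fold changes, 0.65 ± 0.36 (SE) for BIX and 0.61 ± 0.35 for VXN, did not pass edgeR's test (adjusted p = 0.21 and 0.211). EOMES (chromosome 3, 27715953 to 27722713), the T-box gene that opens the mesendoderm programme, had 1.10 and 1.04 CPM under DMSO, 0.631 and 1.03 under BIX, and 1.44 and 1.19 under VXN. Its log2 fold changes of -0.38 ± 0.39 and 0.29 ± 0.34 had opposite signs, and neither passed edgeR's test (adjusted p = 0.556 and 0.577).

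The endoderm members were at or under the floor in t-hESC under every treatment. SOX17 (chromosome 8, 54457935 to 54460892) had 0 counts in all 10 libraries, which allows up to 3 counts in each. GATA6 (chromosome 18, 22169589 to 22202528) had 0 counts in the DMSO and BIX libraries and 1 count in each VXN library. FOXA2 (chromosome 20, 22580998 to 22585490) had 0 to 2 counts in the t-hESC libraries. No change in these genes could be measured there.

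Among the 9 members other than NPTX1, 7 passed the filter on low counts and 5 stood above the floor of 3 counts in some library in t-hESC. BIX changed 1 of the 9, OTX2, where 23.1% of all genes tested were called and 12.2% were called lower. VXN changed 2 of the 9, OTX2 and PAX6, where 29% of all genes were called and 14.6% were called lower. DESeq2 called 1 of the 9 for each compound. The plot of member changes gives the sizes with their errors.

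**Figure D2:**
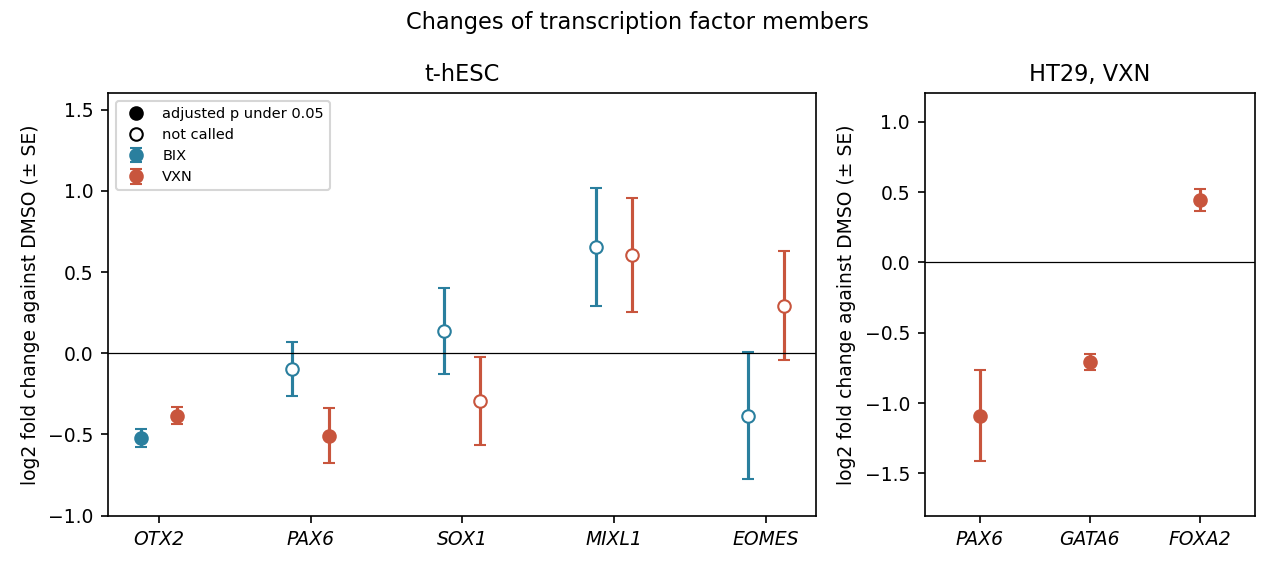
Log2 fold change against DMSO (vertical axes, with bars of 1 SE) of the transcription factor members above the floor, for BIX and VXN in t-hESC and for VXN in HT29. Filled points passed an adjusted p of 0.05 in edgeR; in t-hESC these are OTX2 under both compounds and PAX6 under VXN, and in HT29 the falls of PAX6 and GATA6 and the rise of FOXA2.

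Set directly against each other, with VXN at 10 µM and BIX at 1 µM, the compounds gave no called difference among the 9 members, where 22.7% of all genes were called. At an unadjusted p under 0.05 there were 2, OTX2 and PAX6. OTX2 was 1.10 times as high under VXN as under BIX (95% interval 1.01 to 1.197, edgeR adjusted p = 0.0916), and PAX6 was 0.753 times as high (0.585 to 0.969, adjusted p = 0.1). Leaving out BIX replicate 1 gave a call for PAX6 (adjusted p = 0.00939), leaving out BIX replicate 2 gave one for OTX2 (0.0171), and DESeq2 gave none. For SOX1, MIXL1 and EOMES the intervals ran from 0.5001 to 1.10, from 0.602 to 1.55 and from 0.940 to 2.72. Compound and dose cannot be told apart here.

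To place NPTX1 among its relatives and partners, 11 genes were listed: pentraxins, AMPA receptor subunits and TDGF1. Of the 7 that were tested, BIX changed 0 in edgeR and VXN raised 1 and lowered 2. Over all genes BIX changed 23.1%, and VXN raised 14.5% and lowered 14.6%. TDGF1 was 276 and 269 CPM under DMSO, 264 and 264 under BIX, and 179 and 166 under VXN. Its fall under VXN, -0.66 ± 0.036 (SE) on the log2 scale (edgeR adjusted p = 2.6e-24), went with no overlap between the groups. NPTX2, which encodes a second neuronal pentraxin, was 47.6 and 48.2 CPM under DMSO and 58.9 and 58.1 under VXN, a rise of 0.29 ± 0.057 (adjusted p = 5.27e-05). NPTXR, the membrane-bound neuronal pentraxin receptor, stayed between 17.5 and 22.0 CPM in the 6 libraries and was not called. GRIA4, an AMPA receptor subunit gene, fell under VXN by 0.25 on the log2 scale (adjusted p = 0.0259), a call that DESeq2 lost (0.316), as did leaving out either DMSO replicate (0.0847 and 0.0868) or VXN replicate 1 (0.315). With 0 calls for BIX, none of the 7 could be called higher under BIX and lower under VXN.

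Genes patterned like NPTX1 over the 6 t-hESC libraries were sought among tested genes averaging 1 CPM or more with group means at least 2 apart on the log2 scale. There were 12 such genes other than NPTX1, and 2 had a positive Pearson correlation of log2 CPM with it. STC1, which encodes the secreted hormone stanniocalcin 1, was the closest (r = 0.991). It had 21.2 and 24.3 CPM under DMSO, 28.1 and 27.2 under BIX, and 5.98 and 5.42 under VXN. RGPD6 followed (r = 0.235), a gene with near-identical copies whose reads the counting could split, and then U2AF1, FAM156B and SLX1B with r of -0.48, -0.62 and -0.67. At the other end stood the immediate early gene JUN (r = -0.99). All these points share the same 6 libraries and the same DMSO controls, so the correlations are descriptions.

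Other neural genes moved in both directions under each compound. Of a list of 24 neural ectoderm and early neural genes, 23 were tested: BIX raised 5 and lowered 4, and VXN raised 5 and lowered 7. Over all genes BIX raised 10.9% and lowered 12.2%, and VXN raised 14.5% and lowered 14.6%. The median log2 fold change of the list was 0.02 for BIX and -0.06 for VXN, beside 0.0015 and 0.0036 over all genes. DESeq2 called fewer, 2 up and 2 down for BIX and 2 up and 4 down for VXN. SOX2, which is shared by pluripotent and neural cells, had 282 and 270 CPM under DMSO, rose to 307 and 304 under BIX (log2 fold change 0.15 ± 0.035, adjusted p = 0.000697; 0.0956 without DMSO replicate 2) and fell to 214 and 228 under VXN (-0.32 ± 0.035, 2.75e-11). ZIC2, a zinc finger factor, rose by 0.15 ± 0.033 under BIX (0.000266) and was not called under VXN. NES, the neural intermediate filament gene, rose by 0.09 ± 0.033 under BIX (0.0441), a call that was lost with DESeq2 (0.098), without DMSO replicate 2 (0.582) and without BIX replicate 1 (0.23). CDH2, the N-cadherin gene, ran from 124 to 136 CPM in the 6 libraries and was called for neither compound.

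VXN lowered 2 neural genes by 2-fold or more. HES5, a target of Notch in neural progenitors, went from 1.32 and 1.65 CPM to 0.359 and 0.508 CPM, a log2 fold change of -1.76 ± 0.41 (edgeR adjusted p = 0.000517). DCX, the doublecortin gene of young neurons, went from 5.28 and 4.38 CPM to 2.21 and 2.03 CPM (-1.18 ± 0.20, adjusted p = 3.76e-06). DESeq2 gave HES5 no adjusted p. The 5 neural genes that VXN raised were SIX3, LHX2, LHX5, HESX1 and POU3F1, named here after their values were seen. SIX3 and LHX5, homeodomain factors of the anterior brain, rose by 0.49 ± 0.098 and 0.80 ± 0.15, while the calls of LHX2, HESX1 and POU3F1 were lost with DESeq2 (adjusted p = 0.137, 0.361 and 0.268). Without a library, the VXN call of HESX1 was lost for any 1 of the 4 compared (0.0799 to 0.139), that of POU3F1 without DMSO replicate 2 (0.337) or either VXN replicate (0.0824 and 0.053), and that of LHX2 without DMSO replicate 2 (0.0812) or VXN replicate 1 (0.061). Under BIX the calls of LHX2, HESX1 and POU3F1 were in the other direction, with log2 fold changes of -0.38, -0.77 and -0.29, though that of HESX1 was lost without any 1 of the 4 libraries compared (adjusted p 0.0729 to 0.122) and that of LHX2 without DMSO replicate 1 (0.197) or either BIX replicate (0.128 and 0.0518). Set directly against BIX, VXN was higher for all 5: by 0.65 ± 0.106 for SIX3, 0.81 ± 0.122 for LHX2, 0.93 ± 0.158 for LHX5, 1.345 ± 0.249 for HESX1 and 0.45 ± 0.060 for POU3F1 (edgeR adjusted p of at most 2.13e-05). The 8 pluripotency markers, SOX2 among them, summed to 5206 and 5275 CPM under DMSO, 5292 and 5326 under BIX, and 4584 and 4608 under VXN, with none at 0, and their part in these neural changes was not tested. Fewer cells of a type and less RNA per cell cannot be told apart in such bulk libraries.

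Primitive streak and mesoderm genes were called upward more often than downward. Of 25 listed genes 16 were tested; BIX raised 4 and lowered 0, and VXN raised 8 and lowered 1. Over all genes the shares were 10.9% higher and 12.2% lower for BIX, and 14.5% and 14.6% for VXN. The list's median log2 fold change was 0.40 for each compound, beside 0.0015 and 0.0036 over all genes. DESeq2 called 2 up for BIX and 4 up for VXN, with 0 down, and gave no adjusted p for NODAL and SP5 for BIX or SNAI2, MSX1 and FGF8 for VXN. KDR, the VEGF receptor gene of early mesoderm, was 98.0 and 92.3 CPM under DMSO, 146 and 155 under BIX, and 145 and 154 under VXN. It rose by 0.66 ± 0.044 on the log2 scale under BIX (edgeR adjusted p = 2.33e-19) and by 0.65 ± 0.043 under VXN (6.78e-20), with no overlap with DMSO.

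The other calls in this list were not shared by the tests of both compounds against DMSO. For BIX they were DKK1, a Wnt antagonist (0.605 and 0.848 CPM to 1.51 and 1.54; log2 fold change 1.05 ± 0.33, adjusted p = 0.0129), NODAL (0.56 ± 0.21, 0.0442) and SP5 (0.90 ± 0.34, 0.0467; named after its values were seen). Each of these 3 calls was lost when DMSO replicate 1, BIX replicate 1 or BIX replicate 2 was left out, with adjusted p from 0.0588 to 0.321. For VXN they were SNAI1 and SNAI2, repressors of epithelial genes, TBX6, the ligand genes BMP4 and WNT3, and MSX1 and MSX2, homeobox targets of BMP. BMP4 went from 1.54 and 1.74 CPM to 3.71 and 3.22 CPM (log2 fold change 1.06 ± 0.21, adjusted p = 3.9e-05). MSX2 went from 0.1099 and 0.0942 CPM to 0.897 and 0.734 CPM (2.92 ± 0.59, 6.5e-05). Its DMSO levels lie under the floor of 3 counts in each library, so the size of this rise is uncertain. MSX1 rose by 1.57 ± 0.515 (0.0147). SNAI1 rose by 0.73 ± 0.13 (2.78e-06) and SNAI2 by 1.26 ± 0.26 (7.29e-05). FGF8, a streak ligand gene, was the call in the other direction (-1.98 ± 0.57, 0.00518). It went from 0.714 and 1.13 CPM to 0.0598 and 0.395 CPM, the first of these VXN levels being under the floor. TBX6 (0.255) and WNT3 (0.081) were lost with DESeq2, TBX6 also without DMSO replicate 2 (0.536) or either VXN replicate (0.0505 and 0.088), and MSX1 and FGF8 each without DMSO replicate 2 (0.222 and 0.126) or VXN replicate 1 (0.0884 and 0.154). In the direct test VXN was lower than BIX for DKK1 (-1.01 ± 0.336, adjusted p = 0.0213) and NODAL (-0.80 ± 0.224, 0.00528), and higher for SNAI1 (0.59 ± 0.131, 0.000367) and SNAI2 (1.341 ± 0.280, 0.000167), at the differing doses. The calls of DKK1 and NODAL were lost without VXN replicate 2 (0.207 and 0.155) or BIX replicate 1 (0.0872 and 0.101), that of DKK1 also without BIX replicate 2 (0.0789), and that of SNAI1 with DESeq2 (0.059).

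Some of these genes also mark other cells. The 6 neural crest markers summed to 69.6 and 70.0 CPM under DMSO, 77.4 and 77.6 under BIX, and 89.2 and 91.4 under VXN. In the same order of groups, ETS1 had means of 26.8, 37.8 and 31.1 CPM, NGFR 24.1, 24.7 and 37.6, and FOXD3 17.3, 13.7 and 19.6. Of the 5 tested, BIX raised 1, ETS1, and lowered 1, FOXD3, and VXN raised 2, ETS1 and NGFR, and lowered 0. Over all genes BIX raised 10.9% and lowered 12.2%, and VXN raised 14.5% and lowered 14.6%. The 8 fibroblast and feeder cell markers summed to 704 and 707 CPM under DMSO, between 831 and 871 under BIX, and to 973 and 974 under VXN, where DCN and LUM were at 0. Most of this sum was THY1, with a mean of 587 CPM under DMSO, 693 under BIX and 857 under VXN. Of the 6 tested, BIX raised 3 and lowered 0. VXN raised 1, THY1, and lowered 1, PDGFRB, beside the same shares of all genes. The part of these marker sets in the mesoderm list was not tested. The streak members themselves, TBXT, MIXL1 and EOMES, were called for neither compound.

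Of 22 definitive endoderm and gut genes 18 were tested; BIX raised 3 and lowered 2, and VXN raised 3 and lowered 2, against 10.9% and 12.2% of all genes for BIX and 14.5% and 14.6% for VXN. The list's median log2 fold change was -0.07 for BIX and -0.02 for VXN. DESeq2 called 1 down for BIX and 1 up and 1 down for VXN, and gave no adjusted p for CER1, CDX2 and LEFTY1 for BIX or FGF17 for VXN. LEFTY1, a Nodal target and inhibitor, had 2.47 and 2.54 CPM under DMSO, 6.12 and 5.43 under BIX and 4.60 and 4.06 under VXN. It rose by 1.205 ± 0.193 on the log2 scale under BIX (edgeR adjusted p = 1.13e-06) and by 0.78 ± 0.20 under VXN (0.00142; lost with DESeq2 at 0.0948). CER1, a secreted antagonist of Nodal, BMP and Wnt, went from 0.275 and 0.330 CPM to 1.01 and 1.10 CPM under BIX (1.77 ± 0.50, 0.00573). That call was lost without DMSO replicate 1 (0.0582) or BIX replicate 2 (0.0508). The BIX call of CDX2 rested on 3 and 2 counts against 0 and 0, which is at the floor, so no fold is given. KIT fell under both compounds, by 0.26 and 0.37 on the log2 scale, and DESeq2 lost both calls (0.331 and 0.0841); the BIX call was also lost without DMSO replicate 2 (0.182) or BIX replicate 1 (0.577). EPCAM fell by 0.16 under BIX (0.00235) and CLDN6 by 0.19 under VXN (2.3e-06), and FOXA3, at 19.3 and 19.6 CPM under DMSO, was called for neither. CXCR4 and FGF17 were the other upward calls under VXN, named after their values were seen (0.71 ± 0.204 and 0.95 ± 0.262 on the log2 scale), and the call of CXCR4 was lost without VXN replicate 2 (adjusted p = 0.0531). The plot of the 3 lists shows that most genes lie within 1 log2 unit of DMSO.

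**Figure D3:**
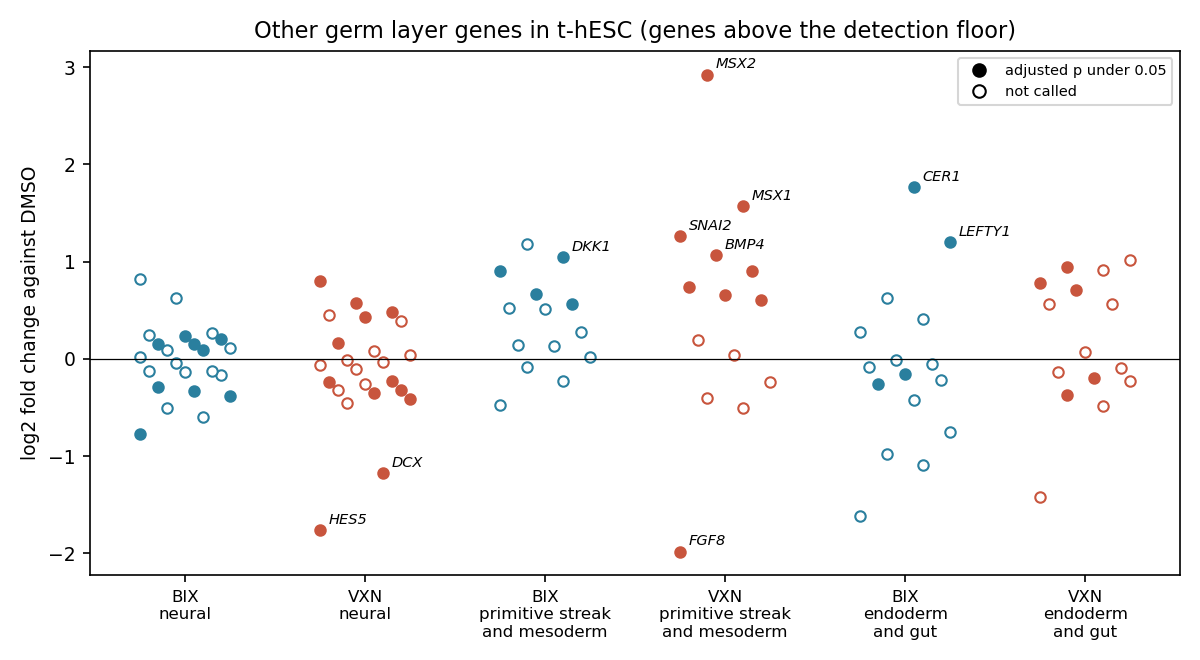
Log2 fold change against DMSO in t-hESC (vertical axis) of the listed genes above the floor, by list and compound (horizontal axis, with points spread sideways only for legibility). Filled points passed an adjusted p of 0.05, and called genes past 1 log2 unit are named; the primitive streak and mesoderm genes have 8 calls up and 1 down under VXN.

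Trophoblast and amnion genes, which pluripotent cells can also turn on under BMP, were also listed. Of 12 such genes 9 were tested, with 1 raised by BIX and 1 lowered by VXN, where 10.9% of all genes were raised by BIX and 14.6% lowered by VXN. Of the 9, VGLL1 and ELF5 had 0 counts in t-hESC, GATA3 and ISL1 stayed at or under the floor, and TFAP2A had at most 0.315 CPM. These and GATA2 passed the filter on low counts only through HT29. Only KRT7, TFAP2C and IGFBP3 were well measured in t-hESC, so the count says little about the list. TFAP2C rose under BIX by 0.54 ± 0.14 on the log2 scale (edgeR adjusted p = 0.00171; 0.108 with DESeq2), and KRT7 fell under VXN by 0.67 ± 0.13 (2.93e-05). IGFBP3 and GATA2 were called for neither compound, and GATA2 had at most 0.478 CPM in t-hESC.

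In HT29 the endoderm members GATA6 and FOXA2 were well detected, while SOX17 had 0 counts. GATA6, a zinc finger factor of endoderm and gut, had 60.9 and 56.7 CPM under DMSO and 35.6 and 36.5 CPM under VXN, from 1479 and 1327 counts and 815 and 720 counts. The groups did not overlap, and the log2 fold change was -0.71 ± 0.057 (SE), a level 0.613 times that of DMSO (edgeR adjusted p = 1.96e-17). Its antisense partner GATA6-AS1 went from 202 and 205 counts to 98 and 99 counts, and because the kit does not mark strand, reads of the pair cannot be told apart. FOXA2, a forkhead factor that opens endoderm enhancers, went the other way, from 25.5 and 20.6 CPM to 31.2 and 31.5 CPM. Its log2 fold change was 0.44 ± 0.076, or 1.36-fold (adjusted p = 7.96e-07), with no overlap. Both calls held under all 17 alternatives, the weakest being DESeq2 for FOXA2 (adjusted p = 0.0438). The authors' deposited table called neither (adjusted p = 0.14 for GATA6 and 0.247 for FOXA2).

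PAX6 was detected in HT29 too and fell there under VXN. It had 39 and 28 counts, or 1.61 and 1.196 CPM, under DMSO and 17 and 11 counts, or 0.743 and 0.558 CPM, under VXN. The log2 fold change was -1.09 ± 0.32 (SE), a level 0.470 times that of DMSO (edgeR adjusted p = 0.00278), and without HT29 DMSO replicate 1 the adjusted p was 0.0655. The authors' deposited table also called it (adjusted p = 0.0275). The VXN effect on PAX6 in HT29 less that in t-hESC was -0.58 ± 0.37 on the log2 scale, which did not pass the test of the difference (adjusted p = 0.216). Over the 9 members other than NPTX1 edgeR called 0 such differences between the lines, where 43.2% of all genes were called, 22.9% higher and 20.3% lower in HT29. Only PAX6 stood above the floor in both lines. TBXT and SOX17 were not tested, and the others were at or under the floor in 1 of the lines, with an SE of 570 for SOX1 and 440 for EOMES. The count of 0 thus does not show that VXN acted alike on the members in the lines.

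NPTX1 had 0 counts in both HT29 DMSO libraries and 6 and 2 counts, or 0.262 and 0.101 CPM, in the VXN libraries. Summed over the group this was at least 2.99-fold higher than the 3 counts that 0 allows. These are levels at or near the floor, and NPTX1 passed the filter on low counts only through the t-hESC libraries by which it was chosen, so no p is given. NPTX1 remained 7.42 times as high in t-hESC under VXN as in HT29 under VXN (95% interval from counting alone 3.48 to 18.2). The 8 pluripotency markers summed to 249 to 251 CPM in HT29 under DMSO and to 236 to 239 CPM under VXN, with 3 and then 2 of the 8 at or under the floor. Nearly all of these sums was PODXL, with a mean of 246 CPM under DMSO and 228 under VXN. Of the other markers LIN28A had 1 and 0 counts under DMSO and 8 and 17 under VXN, and DPPA4 2 and 3 counts, then 8 and 20. Summed over the group, POU5F1 had 83 counts under DMSO and 79 under VXN, and NANOG 2 and 2. SOX2 had 7 and 10 in the same order, and TDGF1 102 and 240. Of the 7 markers tested, 3 were called higher and 1 lower, beside 33% and 26.9% of all genes. As a share of the highest t-hESC group mean, LIN28A was 0.0333% and 0.0819% in the VXN libraries and NPTX1 was 0.882% and 0.341%. NPTX1 was higher in VXN replicate 1 and LIN28A in VXN replicate 2, on counts too few to draw anything from the order. ZFP42 was at 0 in the HT29 VXN libraries, and the part of the pluripotency markers in this result was not tested.

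**Figure D4:**
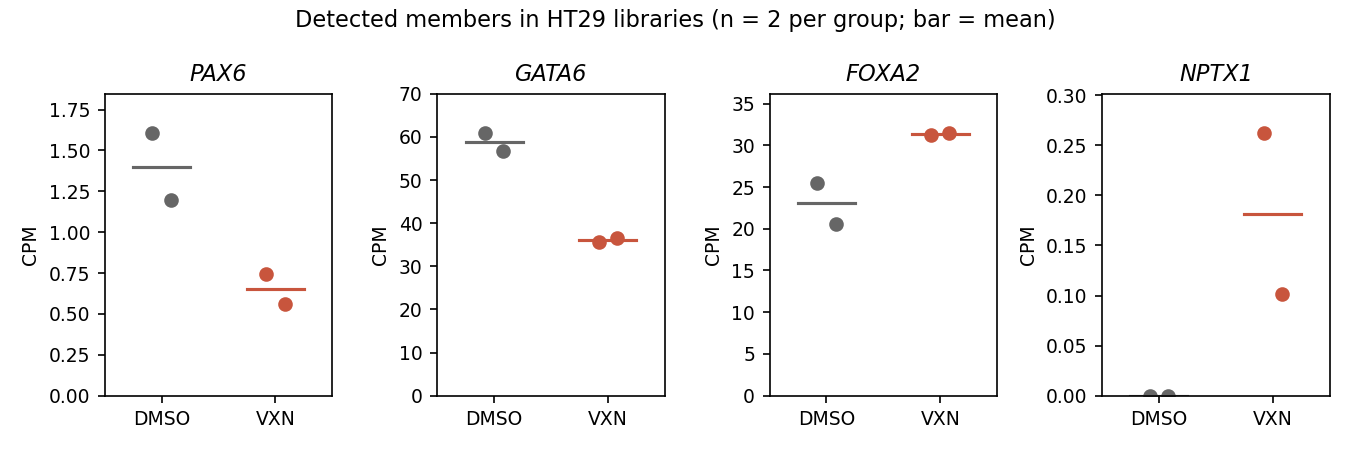
Levels in CPM (vertical axes, each from 0) of 4 members in HT29 under DMSO and VXN. Points are the 2 libraries of a group and bars their mean; PAX6 and GATA6 are lower and FOXA2 higher under VXN, and the NPTX1 axis ends near 0.3 CPM, which is 6 and 2 counts.

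Of the 9 members other than NPTX1, VXN thus changed 3 in HT29 (1 higher and 2 lower), where 60% of all genes were called, 33% higher and 26.9% lower. OTX2 had 1 and 2 counts under VXN and 0 under DMSO, MIXL1 had 1 count in 1 DMSO library, and SOX1, TBXT, EOMES and SOX17 had 0 counts in all 4 HT29 libraries. In the endoderm list VXN raised 2 and lowered 6 of 18 tested genes in HT29. Among those lowered, and named after their values were seen, HNF4A went from 76.1 and 75.4 CPM to 31.6 and 31.9 CPM and FOXA1 from 137 and 139 CPM to 61.3 and 62.4 CPM. The 8 intestinal epithelium markers summed to 1087 to 1096 CPM under DMSO and 1470 to 1478 CPM under VXN, with none at 0. Within this sum KRT20 rose from a mean of 250 to 704 CPM and CEACAM5 from 5.54 to 48.1 CPM. VIL1 fell from 183 to 95.1 CPM, TFF3 from 5.28 to 0.345 and GPA33 from 1.61 to 0.135. Of the 7 tested, 2 were called higher and 3 lower, beside 33% and 26.9% of all genes. The part of these markers was not tested. In the streak list 6 of 16 were raised and 4 lowered. Among those lowered were DKK1, which went from 147 and 143 CPM to 5.86 and 6.69 CPM, and BMP4, from 299 and 293 CPM to 118 and 118 CPM. Among those raised, FGF8 (0.525 and 0.0507 CPM under VXN), NODAL (0.175 and 0.203) and KDR (0.0875 and 0.253) were at or near the floor. They passed the filter on low counts only through t-hESC, and DESeq2 lost the calls of FGF8 and NODAL (adjusted p = 0.0918 and 0.101). Of the pentraxin list 3 of 7 were called higher, TDGF1 from 2.06 and 2.22 CPM to 5.60 and 5.68 CPM, and PTX3 (0.175 and 0 CPM under VXN) and GRIA4 (0.131 and 0.304 CPM) at or near the floor. The calls of PTX3 and GRIA4, which passed the filter on low counts only through t-hESC, were lost with DESeq2 (adjusted p = 0.0686 and 0.0701), and that of PTX3 without VXN replicate 1 (adjusted p = 1).

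Under DMSO the levels of most members lay far apart between the lines. Of the 9 members other than NPTX1, 7 were called, 2 higher in HT29 and 5 lower, where 84.4% of all genes were called, 38.9% higher and 45.6% lower. All of the 7 but PAX6 passed the filter on low counts only through the line where they were high, so the count supports nothing about the members. The median log2 difference over all genes was -0.12 for HT29 against t-hESC, or -0.23 with upper-quartile factors, and the members' differences were far larger. OTX2 had 0 counts in HT29 DMSO and was at least 1238-fold higher in t-hESC, NPTX1 at least 243-fold, SOX1 at least 29.4-fold and EOMES at least 16.9-fold, each against 3 counts over the HT29 group. MIXL1 was 39.9 times as high in t-hESC (95% interval from counting 6.68 to 1624). PAX6 was 4.404 times as high (3.35 to 5.86), the smallest of these ratios. In the other direction GATA6 was at least 773-fold higher in HT29, and FOXA2 was 455 times as high (126 to 3760). TBXT and SOX17 were not tested, at 0 counts in HT29 and at most 3 in t-hESC.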

How the data were processed

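RNA was sequenced from 10 libraries in 5 groups of 2, prepared with a TruSeq RNA v2 kit, per the labels' protocols; that kit does not mark strand. The authors deposited raw counts per gene for 60651 genes and 1181 repeat families. The repeat families, 3.52 to 5.64% of counts, were left out of library sizes here. The submitters' processing notes name the tools (STAR, DESeq2 1.34.0, fastp 0.20.1 and FastQC 0.11.9) and the genome GRCh38, also as hg38. Which program counted the reads is not given there. The authors' deposited comparison tables give a log2 fold change and an adjusted p-value per gene. These tables give no adjusted p for 6 members for BIX, 6 for VXN in t-hESC and 2 in HT29. Another 4 columns of counts belong to no sample listed and were left aside.

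Counts were fitted over all 10 libraries with edgeR 4.0.16 in R 4.3.3: TMM factors, filterByExpr with a minimum count of 10, which kept 22495 genes, and the robust quasi-likelihood test with 5 residual and a median of 56.7 prior degrees of freedom. Intervals are at the 95% level. Replicates of a group differed by more than sampling noise (chi-square per degree of freedom 1.19 to 1.85). The members and the gene lists were chosen with earlier results of these data known. All 10 members are named. Of each list the text names the 4 genes with the highest mean level in t-hESC and those called with a change of 2-fold or more there, and says where it names others. The test was checked on simulated counts for 22495 genes with 200 changed: for BIX 48, 54, 66 and 90% of changes of 1.25, 1.5, 2 and 4-fold were recovered with 9.79% false calls, and for VXN 36, 60, 66 and 88% with 6.72% false. Alternatives were DESeq2-type and upper-quartile factors, a replicate block, each library left out, DESeq2 1.42.0, a minimum count of 50 or none, and a fit of just the groups being compared. Promoter sequences and gene positions are from RefSeq on GRCh38.p14, matched by symbol.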

Additional observations from a re-analysis of the deposited data

Results flagged for a closer look

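Groups of 2 libraries allow no test for outlying libraries here, so the results below are those in which the effect of VXN differed between HT29 and t-hESC. NPTX1 was lower under VXN in both t-hESC libraries. In HT29 it had 6 and 2 counts under VXN against 0 and 0 under DMSO, and the 2 counts lie under the floor of 3. The fitted difference was 8.36 on the log2 scale. This difference was not tested, and its size depends on the prior count because HT29 under DMSO had 0 counts. TDGF1, which encodes the Nodal co-receptor that NPTX1 is known to bind, fell in t-hESC and rose in HT29. Its VXN effect in HT29 less that in t-hESC was 2.06 ± 0.165 (SE, edgeR adjusted p = 3.46e-17).

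DKK1, BMP4, MSX1 and MSX2, of the streak and mesoderm list, differed in the other direction. The difference was -4.57 ± 0.45 for DKK1 (edgeR adjusted p = 1.5e-13), -2.39 ± 0.21 for BMP4 (2.33e-15), -2.02 ± 0.73 for MSX1 (0.0192) and -2.03 ± 0.64 for MSX2 (0.00705); the last 2 were lost without t-hESC DMSO replicate 2 (0.129 and 0.0683). The difference of MSX1 was also lost with DESeq2 (0.194) and without HT29 DMSO replicate 1 (0.0892), HT29 VXN replicate 1 (0.103) or t-hESC VXN replicate 1 (0.0577). BMP4 rose in t-hESC and fell in HT29, while MSX2 rose in both, in t-hESC from DMSO levels under the floor. SNAI1 rose in both lines and more in HT29, with a difference of 1.07 ± 0.24 (0.000189). For KRT7, lower in t-hESC and higher in HT29, it was 1.31 ± 0.18 (5.18e-09), and for NES, which fell in HT29, it was -0.73 ± 0.20 (0.00212). Of the 22495 genes tested, 43.2% differed between the lines.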

How the results depend on the processing

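No called result reversed direction, while some values that were not called changed sign, as PAX6 for BIX (log2 fold changes from -0.43 to 0.20). Of 102 counts of called members recomputed under the alternatives 95 stayed within 1.5 times the main count. VXN against DMSO in t-hESC gave 1 called member instead of 2 with DESeq2, and 1 to 2 when a library was left out. VXN against BIX gave 0 to 1 when a library was left out, instead of 0. HT29 against t-hESC gave 5 called members instead of 8 (NPTX1 included) with a minimum count of 50, since fewer members were tested. For the other changes the cause was not tested. Of all genes called, BIX against DMSO in t-hESC had 2825 with DESeq2 (1369 higher and 1456 lower) and 5199 with edgeR. Of all genes called, VXN against DMSO in t-hESC had 3570 (1649 and 1921) and 6531. Of all genes called, VXN against BIX in t-hESC had 2579 and 5110. Of 3957 single-gene values recomputed, 195 fell below the threshold and 2 rose past it. Same-numbered libraries shared only a number: correlations of their deviations ran from -0.062 to 0.076 over 10963 genes. With the replicate block 1 member was called for BIX, 2 for VXN in t-hESC, 0 for VXN against BIX, 4 for VXN in HT29, 0 for the difference between the lines and 8 between the lines, the same counts as without it (NPTX1 is included in the 4 and the 8); in HT29 it ended the call of ZIC2 (adjusted p = 0.0743) and in t-hESC that of NODAL for BIX (0.0524) and of IGFBP3 between the compounds (0.0539). Members with fewer than about 40 counts a library limit what could be seen: SOX1, MIXL1 and EOMES could have changed within the intervals given.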

Other observations

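MAP2, which encodes a microtubule protein of neuronal dendrites, was singled out after its values were seen. In HT29 it went from 1.24 and 1.37 CPM under DMSO to 32.7 and 32.6 CPM under VXN, a log2 fold change of 4.64 ± 0.12 (SE, edgeR adjusted p = 2.17e-43). In t-hESC it fell under VXN from 42.3 and 40.4 CPM to 30.4 and 31.5 CPM (-0.41 ± 0.064, adjusted p = 3.1e-07), and the difference between the lines was 5.06 ± 0.14 (adjusted p = 1.7e-40). Its level in HT29 under VXN thus came close to that in t-hESC under VXN. Of 8 listed neuron markers 6 were tested in HT29, where VXN raised 1, GAD1, and lowered 0. Over all genes 33% were called higher and 26.9% lower. GAD1 went from 6.26 and 4.57 CPM to 7.52 and 7.15 CPM (log2 fold change 0.44 ± 0.14, edgeR adjusted p = 0.0059). TUBB3 was not called in HT29 and DCX had 0 counts there.

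Of 9 tested trophoblast and amnion genes VXN lowered 4 in HT29 and raised 1, KRT7, where 26.9% of all genes were called lower and 33% higher. GATA2 went from 65.3 and 62.2 CPM to 21.8 and 18.4 CPM (edgeR adjusted p = 7.26e-26), and VGLL1, ELF5 and ISL1 were also called lower. TFAP2A and GATA3 were not called. The names beside GATA2 and KRT7 were added after their values were seen.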
